A study of Mus musculus with 6 samples.

Results

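The response to polyI:C, a synthetic double-stranded RNA, was measured in hematopoietic stem cells (HSCs) from the bone marrow of Cdk6-/- mice. The comparison sets 3 polyI:C-treated Cdk6-/- samples against 3 untreated Cdk6-/- samples, which are all 6 samples of the series. Each sample was labelled with Cy5 on a two-colour Agilent expression array of its own, so 6 of the 12 channels enter. The other channel, Cy3, held a pool of sorted wild-type HSCs given the same treatment: 1 untreated pool and 1 polyI:C pool, each on 3 arrays. Both groups carry the Cdk6 deletion, so treated and untreated cells are compared on a Cdk6-/- background. The slides that held the groups and the values of Y-linked genes differed as well, as given below. The series calls the samples biological replicates. The dose and timing of polyI:C, the sorting gate of the Cdk6-/- cells, the age and sex of the mice and the number of mice per sample are not given in the sources used here.

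Double-stranded RNA is recognised by TLR3 in endosomes and by the helicases encoded by Ddx58 and Ifih1 in the cytosol, and these sensors drive the production of type I interferon. Interferon bound to its receptor activates JAK kinases, and STAT proteins with IRF9 then switch on antiviral genes through the interferon-stimulated response element, while IRF7 amplifies interferon production. PolyI:C and interferon are known to bring dormant mouse HSCs into the cell cycle and to activate megakaryocyte-primed stem cells. CDK6, which pairs with D-type cyclins in G1, is studied here as a regulator of HSC activation.

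Values are log2 Cy5 intensities, and a difference is always polyI:C minus untreated on that log2 scale, with the standard error (SE) of the limma fit. A gene was called when its limma p-value, adjusted by the Benjamini-Hochberg method over all 19884 genes tested, was under 0.05. Between 47.0% and 55.7% of Cy5 spots were well above background on 5 arrays, and 76.5% on polyI:C array 3. That array lay alone on the third of 3 slides, was read with another kind of layout file, and correlated with the other arrays at 0.844 to 0.893 across genes, where polyI:C arrays 1 and 2 correlated at 0.971. Slide 1 held untreated arrays 1 and 3 and polyI:C array 1, and slide 2 held untreated array 2 and polyI:C array 2. Xist, the RNA of the inactive X chromosome, was at 12.90, 12.77 and 8.24 untreated and at 14.19, 13.99 and 8.89 after polyI:C, so array 3 of each group stood apart. The Y-linked genes Ddx3y (difference -1.80, adjusted p = 0.106 in limma) and Eif2s3y (-1.47, adjusted p = 0.231) were not called, but all treated values lay below all untreated values. Their part in the results was not tested. The single Cdk6 probe was at 6.57, 5.99 and 6.95 in untreated samples, not well above background on any, and at 8.53, 8.28 and 7.13 in treated samples, where it was above background on all 3. It was at least 1.75-fold higher after polyI:C, which was not called (limma adjusted p = 0.249), and since the position of this probe relative to the deletion is not known, it does not check the knockout.

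Between polyI:C-treated and untreated Cdk6-/- cells, 66 of 19884 genes (0.332%) were called, 30 higher (0.151%) and 36 lower (0.181%) after polyI:C. The chemokine gene Ccl5, the interferon regulator Irf7, complement factor B and the platelet integrins Itga2b and Itgb3 were among the largest rises, and the red cell genes Slc4a1 and Trim10 were among the largest falls. At an unadjusted p under 0.05 there were 2302 genes, 1134 higher and 1168 lower. The median difference of all genes was 0.01. A symbol was known for 47 of the 66, of which 23 were higher and 24 lower. In all 66 the treated and untreated values did not overlap, a pattern that 1817 genes (9.14%) showed in the higher and 1798 (9.04%) in the lower direction. Leaving out 1 sample changed the count: it was 0 without untreated sample 1, 2 or 3 (1695, 1646 and 2058 genes at an unadjusted p under 0.05), 4 without polyI:C sample 1, 25 without polyI:C sample 2 and 171 without polyI:C sample 3. With array 3 of each group left out together (both low in Xist), no gene was called (0), and 4159 genes stood at an unadjusted p under 0.05. The 66 genes had the same sign in every one of these fits, which follows from the lack of overlap between their groups. Loess and quantile normalization of average intensities in place of quantile normalization of Cy5 gave 26 higher and 14 lower, all of them among the 66, and the scanner software's processed signal gave 20 higher and 10 lower, 22 of them among the 66.

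**Figure D1:**
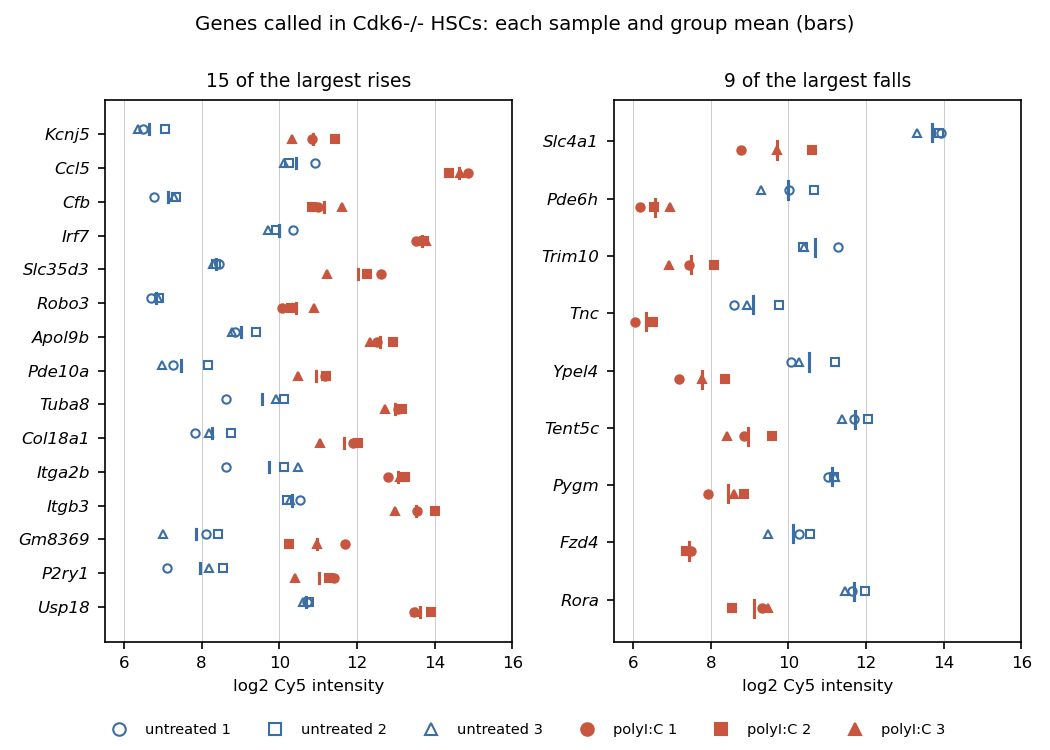
Log2 Cy5 intensity (horizontal axis) of the 15 genes with the largest called rise and 9 of those with the largest called fall that have a symbol. Each point is 1 sample (open blue untreated, filled red polyI:C; circle, square and triangle are samples 1, 2 and 3) and bars are group means of 3 samples; in every gene shown the groups do not overlap, for example Irf7 at 9.71 to 10.35 against 13.51 to 13.77.

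Among the regulators of the interferon response, Irf7, the transcription factor that sustains interferon production, had log2 intensities of 10.35, 9.91 and 9.71 untreated and 13.51, 13.72 and 13.77 after polyI:C. Every treated sample was more than 3 log2 units above every untreated one. The rise was 3.67 (SE 0.32, 12.8-fold, limma adjusted p = 0.00865, n = 3 against 3), in a gene that lies at chr7:141263183-141266499 (GRCm38.p6). Of 9 IRF genes tested, it was the 1 called, and the list median was -0.41. Irf9, the DNA-binding partner of STAT proteins, was at 13.04, 13.20 and 13.01 untreated and 13.57, 13.40 and 12.29 treated, with no difference of means to 2 decimals (0.00, SE 0.40). Irf1 was at -0.71 (adjusted p = 0.445) and the lymphoid and myeloid factors Irf4 and Irf8 at -1.89 (adjusted p = 0.189) and -0.41. None of 7 STAT genes was called. Stat2, a transducer of type I interferon signals, was at 0.72 (SE 0.51), with overlapping groups.

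Usp18, a protease that strips ISG15 from proteins and restrains signalling at the type I interferon receptor, was at 10.72, 10.76 and 10.62 untreated and 13.47, 13.90 and 13.52 treated. The untreated samples lay close together, and the treated samples stood clear of them. The rise was 2.93 (SE 0.31, 7.61-fold, limma adjusted p = 0.013). It was the 1 called gene of 15 receptors, kinases and inhibitors tested, whose median was -0.15, a sign that turned in 3 alternative analyses. Socs1, an inhibitor of JAK kinases, was at 1.21 (adjusted p = 0.265), with all treated values above all untreated values. The receptor chains Ifnar1 and Ifnar2 were at -0.65 and -0.35, and the kinase Jak1 was at -1.20, where polyI:C sample 3 (10.86) was the lowest of the 6; none passed.

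Of the sensors and adaptors of double-stranded RNA, 14 of 18 were tested and none was called; their median was 0.64, and 0.62 over the 13 above background on all 6 arrays. Zbp1, a sensor of left-handed nucleic acids, came nearest, at 11.28, 10.46 and 10.63 untreated against 13.03, 12.95 and 12.67 (difference 2.09, SE 0.35, adjusted p = 0.0551 in limma). Dhx58, a regulator of cytosolic RNA sensing, was at 1.22, Ifih1 at 0.96 and Ddx58 at 0.74, none past the threshold. Tlr3, the endosomal receptor for polyI:C, was not well above background in any sample. The kinase Ikbke was at -1.35 (adjusted p = 0.163), with every treated value below every untreated value.

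Antiviral effector genes lay above 0 as groups, with 2 called members among genes with a symbol. Lists were matched by symbol, so the 19 called genes without a symbol were not placed on any list. Some of the 19 carry a transcript name that was not matched to a symbol, and any antiviral effector among them is not counted here. On the list of the OAS system, whose enzymes sense double-stranded RNA and make an antiviral second messenger, 8 of 9 genes were tested, 6 had all treated values above all untreated ones, and none was called. Their median was 1.65, or 1.92 over the 7 above background on all arrays, against 0.01 for all genes. Oas1a, for example, was at 12.78, 11.92 and 11.98 untreated and 14.39, 14.51 and 13.91 treated (2.05, SE 0.37, adjusted p = 0.0681 in limma). Oasl1 (2.06), Oas2 (1.97) and Oas3 (1.92) were of similar size. Of 30 IFIT, IFITM and other antiviral genes, 25 were tested, with a median of 1.37, or 1.27 over the 20 above background on all 6 arrays. The group was uneven: 23 lay above 0, and 15 had no overlap between the groups in that direction. Among all genes tested, 9.14% had all treated values above all untreated ones.

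Ifit3b, of the IFIT family that binds viral RNA, was the called member of that list, at 8.86, 8.88 and 8.33 untreated and 10.77, 11.18 and 10.81 treated. Its rise was 2.23 (SE 0.33, 4.68-fold, limma adjusted p = 0.041). Its near-identical neighbour Ifit3 was at 2.25 (adjusted p = 0.0627), and the probes may share signal. Ifit1 was at 10.06, 7.73 and 10.26 untreated and 12.49, 12.18 and 11.20 treated (2.60, SE 0.67, adjusted p = 0.167); untreated sample 2 was not above background. Bst2, the tether that holds budding virus at the cell surface, was at 2.32 (adjusted p = 0.0627). The membrane proteins Ifitm1 (-0.18) and Ifitm2 (0.00), the antiviral radical enzyme Rsad2 (0.34) and the exonuclease Isg20 (0.18) had overlapping groups. Ifi27 lay in the other direction, at -0.80, with all treated values below all untreated values (adjusted p = 0.478).

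Sequences upstream of 3 called genes show where a core of the interferon-stimulated response element occurs, as RefSeq on GRCm38.p6 gives them. The search was for GAAANNGAA on both strands in windows from 250 bases before to 50 bases after each annotated start. Capitals mark every match, and the sequence runs 5′ to 3′ on the gene's strand.
Ifit3b, chr19:34607745-34607854, + strand: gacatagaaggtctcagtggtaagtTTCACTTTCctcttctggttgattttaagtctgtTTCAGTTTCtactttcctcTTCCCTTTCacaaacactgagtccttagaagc
Apol9b, chr15:77729011-77729120, + strand: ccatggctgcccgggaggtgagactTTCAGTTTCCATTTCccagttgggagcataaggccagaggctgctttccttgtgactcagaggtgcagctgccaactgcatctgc
Cxcl9, chr5:92328170-92328279, - strand: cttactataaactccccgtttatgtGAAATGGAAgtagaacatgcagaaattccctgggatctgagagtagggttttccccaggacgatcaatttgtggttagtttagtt
Ifit3b holds 3 matches, at 187, 153 and 134 bases before the start. Apol9b holds 2 matches that overlap each other, at 36 and 30 bases before it, and Cxcl9 holds 1, at 175. Of the windows of tested genes on the interferon lists, 42 of 103 (40.8%) held the core, and 22 of 103 (21.4%) held TTCNNNGAA, the core of STAT sites. Of all 32851 promoter windows, 8.56% held the first and 8.3% the second. Among windows of called genes with a symbol, 8 of 22 that rose and 1 of 17 that fell held the first core, and 1 of 22 (4.55%) and 2 of 17 (11.8%) held the second. Some genes have several annotated starts and so several windows, and the first listed is shown for Apol9b. Other called genes had no window and are not in these counts, Ccl5, Cfb, Usp18, Itgb3, Clu and Cd69 among the rises. Among the falls these include Slc4a1, Fech, Slc25a37, Epas1, Sik1 and Eya2. The 8 windows include several of the near-identical Apol9a and Apol9b, with the same matched sequences. The 3 sequences shown are a selection, and the window of Irf7 held no match to either core. A match is a run of letters and was not tested for binding.

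ISG15 conjugation genes, GTPases and antigen presentation genes gave smaller differences. Isg15, the ubiquitin-like protein itself, was at 10.49, 10.40 and 10.80 untreated and 11.53, 12.41 and 12.59 treated, with no overlap (1.61, SE 0.38, adjusted p = 0.134 in limma). Over 15 tested genes of ISG15 conjugation and PARPs the median was 0.65, and Usp18 was the called member. Uba7 and Ube2l6, the enzymes that attach ISG15, were at -0.16 and -0.13. Guanylate-binding proteins and immunity-related GTPases, which attack the vacuoles of intracellular pathogens, had a median of 0.88 over 15 tested genes with none called; Irgm1 was highest at 1.66 (adjusted p = 0.11) and Gbp4 lowest at -0.60. All 6 tested subunits of the immunoproteasome and its activator lay above 0, with a median of 0.58 and none called (Psmb8 1.01, SE 0.32, adjusted p = 0.269). MHC class I and peptide loading genes had a median of 0.26 over 18 tested, with H2-K1 at -0.01, H2-D1 at -0.06 and Tap1 at 0.96, none called. Schlafen genes, restrictors of growth and viral translation, had a median of 0.67 over 7 tested and 0.15 over the 5 above background on all arrays, with none called.

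**Figure D2:**
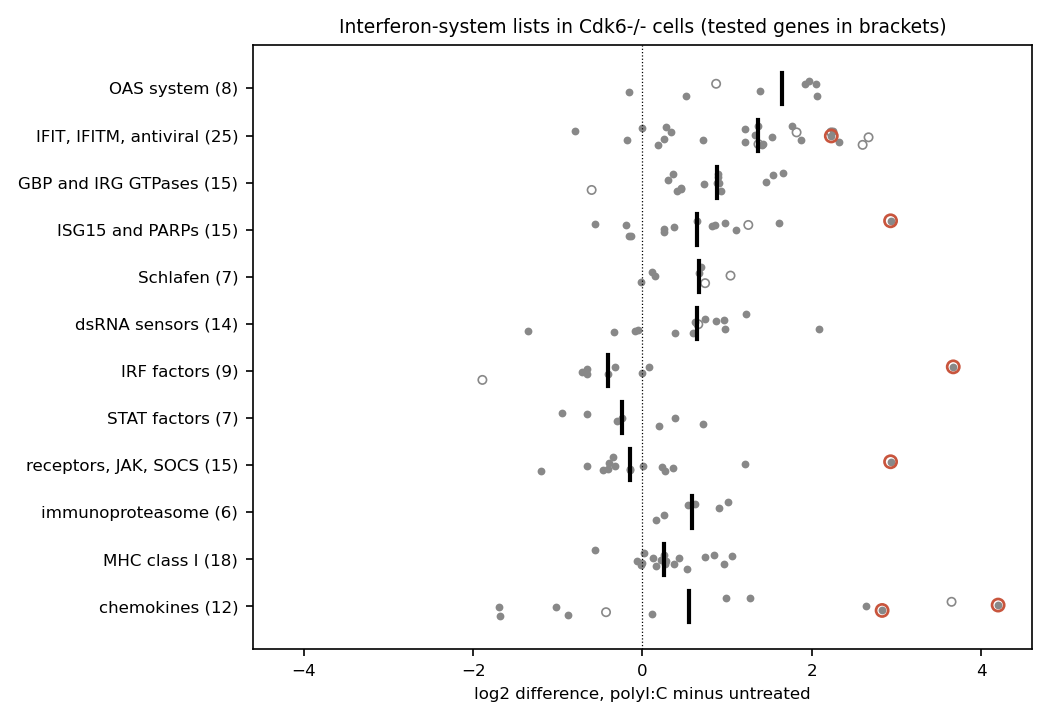
Difference in log2 Cy5 intensity between polyI:C and untreated Cdk6-/- samples (horizontal axis) for each tested gene of 12 lists (rows, number tested in brackets). Filled grey points were above background on all 6 arrays, open points were not, red rings mark called genes and black bars are list medians, which run from -0.41 (IRF factors) to 1.65 (OAS system); the vertical spread of points within a row carries no value.

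Of 12 chemokine genes tested, Ccl5 and Cxcl9 were called. Ccl5, which attracts T cells and is also stored in platelets, was at 10.91, 10.26 and 10.13 untreated and 14.87, 14.37 and 14.66 treated. Every treated sample stood above every untreated one, and all 6 were above background. The rise was 4.20 (SE 0.35, 18.4-fold, limma adjusted p = 0.00865; chr11:83525778-83530518). Cxcl9, an interferon-gamma-inducible ligand of CXCR3, was at 9.26, 8.52 and 8.75 untreated and 11.80, 11.56 and 11.65 treated, a rise of 2.83 (SE 0.33, adjusted p = 0.0175). Its relative Cxcl10 was at 7.5, 8.37 and 10.14 untreated and 13.20, 12.90 and 10.85 treated. The treated values were higher without overlap, but untreated sample 3 and polyI:C sample 3 lay close to each other, and the difference of 3.65 was not called (SE 0.77, adjusted p = 0.106 in limma). Cxcl12, which retains HSCs in the marrow, was at -1.69 (adjusted p = 0.111) and Ccl6 at -1.68 (adjusted p = 0.169), both without overlap.

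Ccl5 is also a marker of T and NK cells. Of 26 such markers 21 were tested, and Ccl5 alone was called; the median was 0.52, or 0.12 over the 11 above background on all 6 arrays. The summed intensity of the 20 tested markers other than Ccl5, a sum chosen after seeing the data, was 23197 to 25243 untreated and 36208 to 40168 treated, and with Ccl5 it was 24319 to 26469 and 57441 to 69119. Of the 21 tested markers, 9 passed the background filter only through the treated samples, which favours a higher treated sum. Cd3e, of the T cell receptor complex, was at 7.65, 7.82 and 7.97 untreated, above background in 2 of 3, and at 9.56, 8.98 and 9.46 treated (1.52, adjusted p = 0.106 in limma). Granzyme B, Gzmb, was at 7.65, 6.18 and 6.20 against 9.98, 9.82 and 8.83 (2.86, adjusted p = 0.0627). Its values in untreated samples 2 and 3 lay under the lowest level that counted as above background on those arrays, 7.16 and 7.39. The NK receptors Klrd1 and Klrk1 were not above background in any sample, and Prf1, perforin, was at 0.02. The part of T or NK cells in the Ccl5 value was not tested.

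Of the called rises, 2 were on the list of platelet and megakaryocyte markers. Itga2b and Itgb3 encode the 2 chains of the platelet fibrinogen receptor, and Itga2b, also called CD41, marks the megakaryocyte lineage as well as primed stem cells. Itga2b was at 8.64, 10.12 and 10.47 untreated and 12.80, 13.24 and 13.11 treated. Untreated sample 1 was the lowest, and the groups did not overlap. The rise was 3.31 (SE 0.48, 9.91-fold, limma adjusted p = 0.0408). Itgb3 was at 10.54, 10.20 and 10.27 untreated and 13.55, 14.01 and 12.99 treated, a rise of 3.18 (SE 0.36, 9.04-fold, adjusted p = 0.0164). The untreated samples lay close together, and no treated sample came near them.

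Of 24 megakaryocyte and platelet markers 22 were tested, 18 lay above 0, and 12 had all treated values above all untreated values, with 2 called. The median was 1.0, or 0.99 over the 19 above background on all 6 arrays, against 0.01 for all genes. Of all genes tested, 9.14% had every treated value above every untreated value. Pf4, a chemokine of platelet granules, was at 11.29, 13.68 and 12.24 untreated and 15.28, 15.02 and 14.81 treated (2.64, SE 0.56, adjusted p = 0.106 in limma). Gp5 and Gp1ba, subunits of the von Willebrand factor receptor, were not above background in any untreated sample and were in all treated ones (at least 2.42-fold and at least 2.04-fold higher, adjusted p = 0.156 and 0.164, not called). Nfe2, a factor of platelet release, was at -0.23, with overlapping groups. The summed intensity of tested markers was 58095 to 70801 untreated and 99938 to 135687 treated, and without the 2 called genes it was 56201 to 68153 and 82949 to 113476. Of the 22 tested, 3 passed the background filter only through the treated samples. In samples of many cells, more cells of a type and more RNA per cell cannot be told apart.

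Of the other called genes with a platelet role, Slc35d3, needed for platelet dense granules, was at 8.44, 8.36 and 8.28 untreated and 12.61, 12.25 and 11.23 treated (3.67, SE 0.40, limma adjusted p = 0.0164). P2ry1, the ADP receptor that starts platelet shape change, was at 7.10, 8.54 and 8.20 untreated and 11.40, 11.29 and 10.40 treated (3.08, SE 0.46, adjusted p = 0.042). Both are on no list used here. In each, polyI:C sample 3 was the lowest treated sample and still above every untreated one. P2ry1 was above background in 2 of 3 untreated samples.

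The remaining large rises are genes of mixed function. Kcnj5, a potassium channel subunit, was at 6.50, 7.05 and 6.35 untreated, not above background, and at 10.83, 11.43 and 10.32 treated; it rose at least 12.8-fold (limma adjusted p = 0.00865). Cfb, complement factor B of the alternative pathway, was at 6.77, 7.35 and 7.28, not above background, against 11.00, 10.84 and 11.61 and rose at least 15-fold. Robo3, a guidance receptor, rose at least 9.5-fold from 6.69, 6.90 and 6.87 to 10.07, 10.31 and 10.89. These bounds divide the mean of the brighter group by the lowest level that counted as above background on the arrays of the dim group, or by the probe's own signal where that was higher. For these 3 genes no untreated sample gave a level, and all 3 treated samples did.

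Apol9b, an apolipoprotein L gene, was at 8.86, 9.39 and 8.78 untreated and 12.52, 12.94 and 12.33 treated (3.59, 12-fold); the near-identical Apol9a was called too, at 2.38 by its own probe. Pde10a, a cyclic nucleotide phosphodiesterase (3.49), Tuba8, an alpha-tubulin (3.43), Col18a1, the collagen that yields endostatin (3.39), and the predicted gene Gm8369 (3.13) complete the 15 largest rises with a symbol. Pde10a was above background in 1 of 3 untreated samples and Gm8369 in 2 of 3. Smaller called rises were those of the chloride channel regulator Clca3a1 (2.86), the secreted chaperone clusterin, Clu (2.32), the transcription factor Atf5 (2.28), the lymphocyte activation antigen Cd69 (2.26) and the protease inhibitor Serpina3i (2.0). Cd69, for example, was at 8.47, 8.75 and 8.62 untreated and 11.10, 10.59 and 10.92 treated.

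Genes of red cell precursors were among the called falls. Slc4a1, band 3, the anion exchanger of the red cell membrane, was at 13.93, 13.87 and 13.32 untreated and 8.77, 10.62 and 9.72 treated. The treated samples varied more than the untreated ones, and even the highest of them, sample 2, lay well below every untreated sample. The fall was -4.00 (SE 0.48, limma adjusted p = 0.0181; chr11:102348820-102365281). Trim10, a TRIM protein of terminal red cell maturation, was at 11.29, 10.38 and 10.41 against 7.45, 8.09 and 6.93 (-3.20, SE 0.42, adjusted p = 0.0268). It was above background in 2 of 3 treated samples.

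Of 31 erythroid markers 29 were tested, 25 lay below 0 and 19 had all treated values below all untreated ones, with 3 called lower. The median was -1.52, or -1.48 over the 22 above background on all 6 arrays. Across all genes tested, 9.04% had all treated values below all untreated ones. The globin genes were not called: Hba-a2 was at 17.71, 17.60 and 17.63 untreated and 14.90, 17.14 and 14.72 treated (-2.06, adjusted p = 0.217 in limma), and Hbb-b1 was at -4.01 (adjusted p = 0.124). In both, polyI:C sample 2 was the treated sample nearest to the untreated ones. Paralogous globin probes share signal and are not independent. Of the regulators, Gata1, the erythroid and megakaryocytic master factor, was at 11.11, 11.68 and 10.67 against 12.60, 12.63 and 12.52 (1.43, adjusted p = 0.155), Epor at 0.39, and Klf1, the factor of globin switching, at -0.82 with overlap. The summed intensity of tested markers was 829413 to 892879 untreated and 264817 to 645834 treated. Of the 29 tested, 5 passed the background filter only through the untreated samples and 2 only through the treated ones.

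Of the genes of heme synthesis and iron, 2 were called, both lower. Fech, ferrochelatase, which puts iron into the ring, was at 13.73, 14.56 and 13.82 untreated and 11.52, 12.03 and 11.22 treated, a fall of -2.45 (SE 0.38, limma adjusted p = 0.045). Slc25a37, mitoferrin, which brings iron into mitochondria, was at 13.43, 13.34 and 13.71 against 10.84, 11.69 and 11.21 (-2.25, SE 0.34, adjusted p = 0.0433). Alas2, the erythroid first enzyme, had a larger difference with a wider spread, at 15.21, 15.10 and 14.59 against 9.90, 12.68 and 10.12 (-4.07, SE 0.68, adjusted p = 0.0561), and so was not called. Of the 16 heme and iron genes, all tested, 14 lay below 0 and 11 without overlap (9.04% of all genes), with a median of -0.84. Alas1, the housekeeping first enzyme, was at 0.08, and Hmox1, which degrades heme, at -0.78, both with overlapping groups.

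The other large falls with a symbol were spread over functions. Pde6h, a phosphodiesterase subunit known from cone cells, was at 10.01, 10.66 and 9.29 against 6.19, 6.55 and 6.95 (-3.43). Tnc, the matrix protein tenascin C, fell at least 4.58-fold to a level not above background. Ypel4 (-2.75), the RNA-modifying enzyme Tent5c (-2.74), muscle glycogen phosphorylase Pygm (-2.68), the Wnt receptor Fzd4 (-2.67) and the nuclear receptor Rora (-2.57) fell as well. Rora was at 11.65, 11.97 and 11.45 untreated and 9.33, 8.56 and 9.47 treated. Smaller called falls were those of Epas1, the hypoxia factor HIF-2alpha (-2.57), the kinase Sik1 (-2.33), Eya2 (-2.20), the death receptor Tnfrsf25 (-1.93), Cyp26b1, which degrades retinoic acid (-2.45), and Vangl1, Vopp1, Cd209f and Dhrs11 (-2.43, -2.09, -2.52 and -1.99). Treated levels were often dim: Pde6h, Fzd4, Tnfrsf25, Cyp26b1 and Vangl1 were above background in 1 of 3 treated samples. Ypel4, Pygm and Cd209f were above it in 2 of 3.

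**Figure D3:**
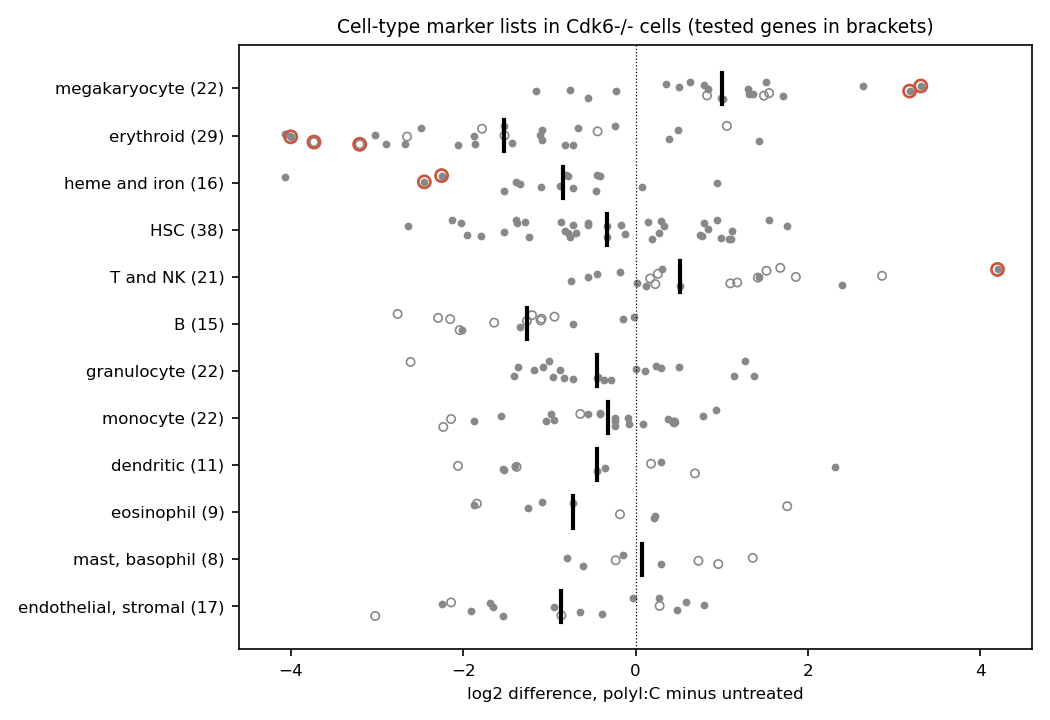
Difference in log2 Cy5 intensity between polyI:C and untreated Cdk6-/- samples (horizontal axis) for each tested gene of 12 marker lists (rows, number tested in brackets). Filled grey points were above background on all 6 arrays, open points were not, red rings mark called genes and black bars are list medians; the megakaryocyte median lies at 1.0 and the erythroid median at -1.52.

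The labelled cell type was checked against HSC genes. All 38 genes of HSC identity were tested and were above background in every sample, Kit, Ly6a, Slamf1, Procr, Mecom, Hlf and Meis1 among them, and none was called. Markers of mature cells were present as well: in untreated samples all 22 tested granulocyte markers and 27 to 29 of 29 erythroid markers were above background, so these levels alone do not set HSCs apart. The median of the HSC genes was -0.33. All treated values lay below all untreated ones in 14 of the 38 and above them in 6. The shares over all genes were 9.04% and 9.14%. Procr, the endothelial protein C receptor used to sort HSCs, was at 13.03, 13.37 and 12.99 untreated and 11.28, 10.86 and 9.33 treated (-2.64, SE 0.50, adjusted p = 0.0775 in limma). Hlf, an HSC-restricted factor, was at 13.22, 13.57 and 14.63 against 12.24, 12.02 and 10.78 (-2.13, adjusted p = 0.145), and Mecom at -2.03 (adjusted p = 0.217). In all 3, polyI:C sample 3 was the lowest, and the groups did not overlap without it either.

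Ly6a, which encodes the interferon-inducible stem cell antigen Sca-1, was at 12.24, 11.94 and 12.65 untreated and 14.06, 13.72 and 13.71 treated (1.55, SE 0.33, adjusted p = 0.11 in limma). Gfi1b, a repressor shared by HSCs, megakaryocytes and red cell precursors, was at 10.10, 10.51 and 10.40 against 12.35, 12.16 and 11.79 (1.76, SE 0.32, adjusted p = 0.0728). Kit was at -0.76 and Cd34 at -1.79, where polyI:C sample 3 (9.42) lay far below polyI:C samples 1 and 2 (12.12 and 11.94). Runx1 (0.75), Gata2 (0.30) and Tal1 (-0.12) overlapped between groups.

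Cell cycle genes gave 1 call. E2f2, an E2F transcription factor of the S phase programme, was at 14.25, 13.72 and 13.75 untreated and 11.79, 11.70 and 11.93 treated. The samples of each group lay close together, and the groups did not overlap. The difference was -2.10 (SE 0.32, limma adjusted p = 0.042). Cdkn1c, encoding p57, an inhibitor held high in dormant HSCs, was at 11.96, 11.96 and 11.36 against 10.37, 9.15 and 9.89 (-1.95, SE 0.40, adjusted p = 0.0976). Ccnd1 was at -0.25 and Cdkn1a, encoding p21, at 0.16, both overlapping. The list of G1 cyclins, CDKs and inhibitors had a median of 0.08 over 20 tested genes, a sign that turned in 1 alternative analysis.

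Of 36 genes of G2 and mitosis 34 were tested, 26 lay above 0 and none was called; the median was 0.43, or 0.33 over the 30 above background on all arrays. Nek2, a centrosome kinase, was highest at 1.34 (adjusted p = 0.164 in limma), Ccnb1 was at 12.30, 12.57 and 12.30 against 13.32, 13.30 and 12.65 (0.70, adjusted p = 0.475), and Mki67 was at -0.14 with overlap. In Cdk1, the kinase that starts mitosis, polyI:C sample 3 was the lowest of all, at 9.96, 9.70 and 8.31 treated against 9.22, 8.59 and 8.82 untreated. Genes of DNA replication and S phase had a median of -0.07 over 37 tested, but 0.25 within each of slides 1 and 2, and its sign turned in 6 alternative analyses; none was called. Myc targets and ribosome biogenesis factors, which mark growth, lay above 0 in 25 of 26 tested genes, with a median of 0.67 and none called. Rrp9, of the small nucleolar ribonucleoproteins, was at 9.74, 9.5 and 10.43 against 11.73, 11.81 and 11.53 (1.8, adjusted p = 0.0837), and Nop16 at 9.94, 9.76 and 9.82 against 11.07, 11.46 and 11.18 (1.40, adjusted p = 0.115). Cytosolic ribosomal protein genes had a median of -0.02 over 42 tested.

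Markers of the other marrow cells gave no called gene. All 15 tested B cell markers lay below 0 (median -1.26), 8 without overlap, against 9.04% of all genes. Of the 15, 10 were not above background in every treated sample and passed the filter only through the untreated samples, which favours a fall. Among all 19884 genes tested, 1880 did so. The counts of 15 and 8 are therefore not a like comparison with the share of all genes. Over the 5 above background on all 6 arrays the median was -0.72. Cd79b was at 12.71, 12.98 and 12.48 untreated and 11.84, 12.17 and 11.99 treated (-0.72, adjusted p = 0.424 in limma). Granulocyte markers had a median of -0.45 over 22 tested: the primary granule genes Mpo (0.50) and Elane (0.29) overlapped, while the secondary granule gene Ltf, lactoferrin, was at 15.80, 15.94 and 15.22 against 14.33, 13.89 and 14.66 (-1.36, adjusted p = 0.18). The median was -0.32 over the 22 tested markers of monocytes and macrophages and -0.45 over the 11 of dendritic cells. Eosinophil markers, at -0.72 over 9, turned sign in 1 alternative analysis, and mast cell and basophil markers, at 0.08 over 8, in 5. Endothelial and stromal markers had a median of -0.86 over 17 tested, while the defining markers Cdh5 and Lepr were too dim to test. The part of such cells in the called genes was not tested.

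Immediate early genes, switched on by fresh signals, had a median of -0.36 over 25 tested with none called. The nuclear receptor Nr4a1 was at 14.81, 14.57 and 14.78 untreated and 12.31, 12.73 and 13.09 treated (-2.01, SE 0.33, adjusted p = 0.0561 in limma), and Nr4a2 was at -2.08 (adjusted p = 0.0975). Fos (-0.23) and Egr1 (-0.17) overlapped. Genes of the integrated stress response, which polyI:C can engage through the kinase of Eif2ak2, had a median of 0.41 over 19 tested. Chac1, which degrades glutathione, was at 2.05 (adjusted p = 0.165), the amino acid transporter Slc7a5 at 1.69 (adjusted p = 0.11) and asparagine synthetase, Asns, at 1.31, all without overlap, while Atf4 was at -0.26 and Ddit3 at -0.44.

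The 2 slides that held both treatments were compared on their own, with no test. On slide 1, polyI:C sample 1 was set against the mean of untreated samples 1 and 3, and on slide 2, polyI:C sample 2 against untreated sample 2. All 66 called genes kept their sign on both, which the lack of overlap between their groups had already fixed. Irf7 differed by 3.48 and 3.80, Itgb3 by 3.14 and 3.81, and Slc4a1 by -4.86 and -3.25. The erythroid median was -1.67 on slide 1 and -0.97 on slide 2, and the megakaryocyte median was 1.23 and 0.96. A fit with a fixed slide effect, in which polyI:C sample 3 carries no weight, called 60 genes, 43 of them among the 66.

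**Figure D4:**
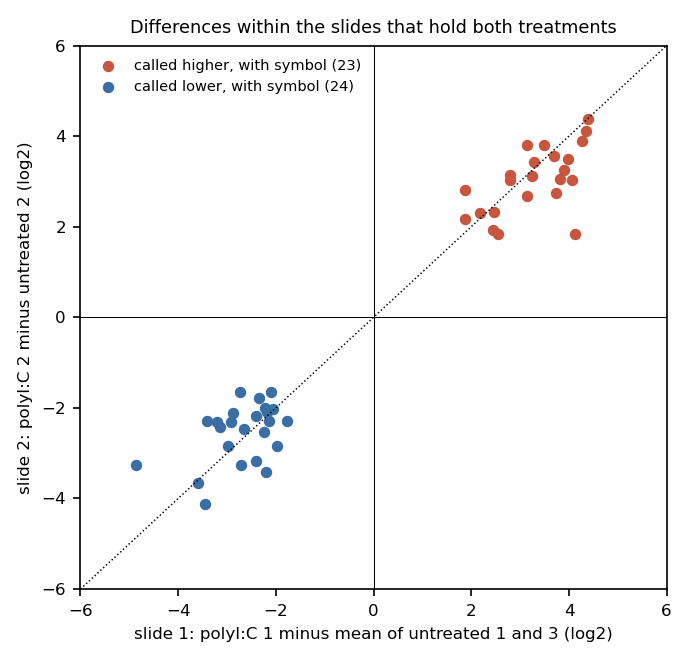
Log2 Cy5 difference of polyI:C minus untreated within slide 1 (horizontal axis) and slide 2 (vertical axis) for the 47 called genes with a symbol, red for the 23 higher and blue for the 24 lower. Every point lies in the quadrant of its call, as the lack of overlap between the groups requires. The dotted line marks equal differences.

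The wild-type pools give the same contrast in Cy3, as values with no test, since each pool is 1 sample; they share arrays with the Cdk6-/- samples. For Irf7 the pools differed by 3.46, for Usp18 by 2.95, for Ccl5 by 3.55 and for Slc4a1 by -3.25, against 3.67, 2.93, 4.20 and -4.00 in Cdk6-/- cells. All 66 called genes had the same sign in the pools. The difference of responses, tested on the log2 ratio of Cy5 to Cy3 on all 6 arrays, was called for 285 genes (1.43%) and for 7 of the 66. It holds no spread of wild-type mice. Without untreated sample 3 or polyI:C sample 3 it was called for 4 and 2 genes, and without untreated sample 1 or 2 or polyI:C sample 1 or 2 for 79, 224, 103 and 71.

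Among the called genes with a symbol, 4 had a response that differed from the pool. Itgb3 rose by 3.18 in Cdk6-/- cells, with pools at 10.78 and 12.05 (1.62, SE 0.28, adjusted p = 0.024), and Clu by 2.32, with pools at 9.28 and 9.94 (1.67, SE 0.25, adjusted p = 0.0183). Fzd4 fell by 2.67, with pools at 8.00 and 6.99 (-1.32, SE 0.28, adjusted p = 0.0494), but was above background in only 1 of 3 treated Cdk6-/- samples. Cfb passed this test too (adjusted p = 0.0301), but its untreated Cdk6-/- samples were not above background while the untreated pool was, at 7.45, against 9.70 in the treated pool, so its difference rests on a Cy5 value that gave no level. In the other direction, GTPases of the GBP and IRG families had a median of 1.68 in the pools against 0.88 in Cdk6-/- cells, with 1 of 15 called, Iigp1 (-1.32, SE 0.25, adjusted p = 0.0341). Granulocyte markers had a median of -2.14 in the pools against -0.45 in Cdk6-/- cells, and 11 of 22 were called. Of all genes tested, 1.43% were called for this difference. Both lists were chosen with earlier results of these data known. With the fixed slide effect, and likewise without polyI:C sample 3, none of Cfb, Itgb3, Clu, Fzd4 and Iigp1 passed, nor did any of the 11 granulocyte markers (limma adjusted p from 0.106 to 0.138 and from 0.0566 to 0.122). Of 8 alternatives, Clu passed in 3, and Cfb, Itgb3, Fzd4 and Iigp1 in 1 each. The 11 granulocyte markers passed in 0 (Padi4) to 6 (Stfa2) of the 8.

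**Figure D5:**
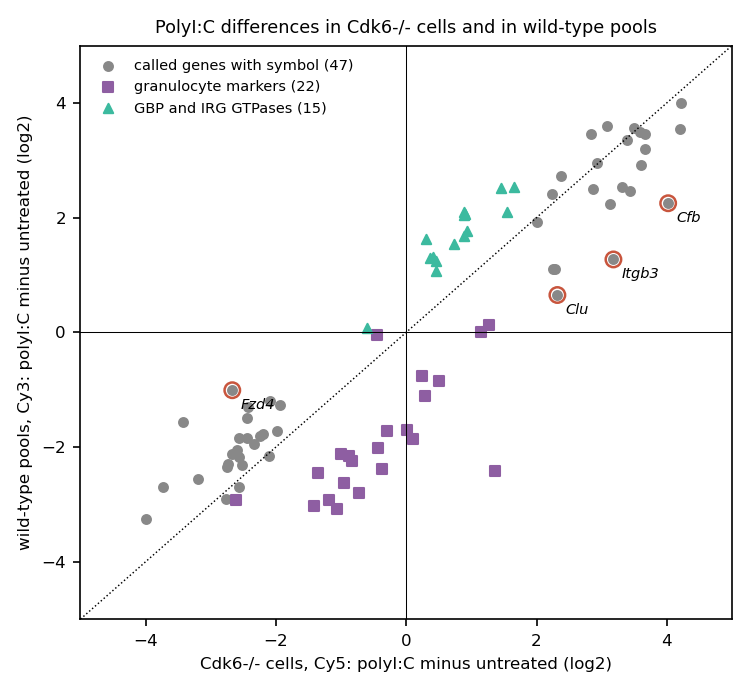
Log2 difference of polyI:C minus untreated in Cdk6-/- cells (horizontal axis, Cy5, 3 against 3 samples) and in wild-type pools (vertical axis, Cy3, 1 pool per treatment on 3 arrays each). Grey points are the 47 called genes with a symbol, purple squares 22 granulocyte markers and green triangles 15 GTPases of the GBP and IRG families; red rings mark the 4 called genes whose difference from the pools passed the test, which holds no spread of wild-type mice and which they did not pass with a fixed slide effect, and the dotted line marks equal differences.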

How the data were processed

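RNA of 6 Cdk6-/- samples (Cy5) was hybridised with RNA of 2 wild-type pools (Cy3) after whole-transcriptome amplification and platinum-based dye labelling, per the labels. The deposited files hold median spot intensity, local background and flags in other columns, written by Feature Extraction 11.5.1.1, per the file headers. They hold no mean signals, so the median was used. Cy5 was background-corrected (normexp, offset 50), control and flagged spots (0.458%) were left out, and Cy5 was quantile-normalized between the 6 arrays. Of 55681 probes, 27173 were well above background on all 3 arrays of at least 1 group. The brightest tested probe stood for each of 19884 genes, 12353 of them with a symbol. Groups were compared with limma 3.58.1 in R 4.3.3 and Benjamini-Hochberg adjustment, with 4 residual degrees of freedom. The difference of responses was fitted on loess-normalized log ratios. RefSeq (GRCm38.p6) gave symbols for 22244 of 23839 accessions, gene positions and promoters; 5 headers name mm9. The text names the 15 largest called rises and 12 largest called falls with a symbol, called list members, and for each list the largest and best known members. The members and lists were chosen with earlier results of these data known. On simulated data with 19884 genes, 40 of 100 changes of 2 and 77 of 100 of 3 log2 units were called, with 5 false calls. The simulated noise was independent between genes and of equal spread on every array, so it held no deviation shared across an array. These counts therefore give no error rate for the real arrays. The alternatives changed the normalization, background, dim filter, probe choice, flags, slide block, variance model, array weights and samples. The number of arrays limits the precision, and p-values measure the spread between these samples, whose separate origin is stated only as biological replication. An exact permutation test of 3 against 3 cannot go below 0.1. Some genes are not reported here, though they remain in the fits, counts and medians.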

Additional observations from a re-analysis of the deposited data

Results flagged for a closer look

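The response to polyI:C differed between Cdk6-/- cells and the wild-type pools for 37 genes described here, by the limma test of the difference of responses. Values are the log2 response in Cdk6-/- cells minus that in the pools. Of granulocyte markers, those concerned were Stfa2 (3.91), Fcnb (2.41), Chil3 (2.39), Cxcr2 (2.31), Retnlg (2.27), S100a8 (2.21), Mmp8 (2.16), S100a9 (1.97), Mmp9 (1.81), Cebpe (1.75) and Padi4 (1.37). Retnlg and the Stfa genes belong to families of similar sequence. Of monocyte, macrophage and chemokine genes they were Marco (3.14), Lyz2 (2.18), Fcgr3 (2.14) and Ccl6 (2.47), of eosinophil markers Ear1 (2.75), Ear10 (2.28), Ear6 (2.25) and Ear2 (1.85), and of B cell markers Siglecg (2.74) and Cd79b (1.65). The Ear genes are near-identical and their probes may share signal. All of these genes were lower in the treated than in the untreated pool, a difference with no test, and none was called in Cdk6-/- cells: S100a8, the calprotectin subunit, was at 0.11 in Cdk6-/- cells and -1.86 in the pools, and Lyz2, lysozyme, at -1.56 and -3.31.

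Further genes with a more positive difference in Cdk6-/- cells were Chac1 (2.34), Ppbp (2.06), Ptgs2 (1.93), Slfn1 (1.82), Id2 (1.56) and Lyl1 (1.22). The difference was negative for Herc6 (-1.86), Tapbpl (-1.74), Iigp1 (-1.32), Ifih1 (-1.26), Eif2ak2 (-1.13) and Eomes (-1.31). Herc6, the mouse ISG15 ligase, was at 0.25 in Cdk6-/- cells and 2.11 in the pools, and Ifih1 at 0.96 and 2.08. Among the called genes it was Clu (1.67), Itgb3 (1.62), Cfb (1.54) and Fzd4 (-1.32). The value for Cfb rests on untreated Cdk6-/- samples that were not above background. Each pool was 1 sample, so the spread of wild-type mice is in none of these values. Stfa2 kept its call in 6 of 8 alternatives, and Padi4, Lyl1, Eif2ak2, Ifih1 and Eomes in 0 of 8. Over all 19884 genes tested, the number called fell from 285 to 2 with slide as a fixed block and to 2 without polyI:C sample 3. None of the 37 genes described here passed in either fit. Their lowest limma adjusted p was 0.106 with the fixed block and 0.0566 without polyI:C sample 3.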

How the results depend on the processing

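The 66 called genes kept their sign in every alternative in which they were tested. In fits that only left out samples, the lack of overlap between the groups fixed this in advance. The number called was 40 (26 higher, 14 lower) with loess and Aquantile, 100 with scaling to the 75th percentile (64 lower), 30 (20 higher, 10 lower) with the processed signal, and 31 (19 higher, 12 lower) with an offset of 16. It was 24 (17 higher, 7 lower) without the dim filter over 36799 genes, and 15 (13 higher, 2 lower) with probes above background on all 6 arrays, where 39 of the 66 were tested. A random slide block gave 207 (93 higher, 114 lower), an intensity trend 130 (58 higher, 72 lower) and array weights 880 (477 higher, 403 lower). Leaving out 1 sample gave 0 to 171 called, 0 to 89 higher and 0 to 82 lower. The difference of responses was called for 2 to 224 genes on leaving out 1 array and for 2 with a fixed slide block. Without array 3 of both groups, 0 genes were called by limma, 0 higher and 0 lower, with 4159 at an unadjusted p under 0.05. The cause was not tested. No paired analysis was possible because replicate numbers here follow accession order and pair nothing. The cholesterol list turned sign in 16 alternatives and the ribosomal list in 8.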

Other observations

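Metabolic and inflammatory gene lists not described above held no called gene. Oxidative phosphorylation had a median of 0.19 over 31 tested genes. In 10 of them all treated values lay above all untreated values, against 9.14% of all genes. Glycolysis was at 0.08 over 20 and cholesterol synthesis and uptake at 0.00 over 19. NF-kappaB and inflammatory mediators had a median of 0.11 over 24 tested genes, MHC class II genes -0.14 over 10, and p53 targets and death genes -0.14 over 22, the last with a sign that turned in 1 alternative analysis. Of the 66 called genes, 19 had no symbol, 7 higher and 12 lower. The largest fall of all genes, -4.52, was among them. Lists were matched by symbol, so any list members among these 19 are missing from the list counts.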
